A study of Mus musculus with 4 samples.

Results

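The enzymes that break down amino acids in the liver were followed through a list of 44 genes, taken from the 24421 symbols of a liver RNA-seq table by their names and placed in 7 groups by substrate: aromatic amino acids, histidine, serine with glycine and one-carbon units, sulfur amino acids, lysine and proline, branched-chain amino acids, and transaminases. All 44 symbols were found in the table. The livers came from hepatectomized mice, that is, mice from which part of the liver had been removed. In the gelADSC group (2 libraries, called 2 and 3 after their columns) the mice were given ADSC, adipose-derived stem cells, embedded in a fibrin gel, and in the control group (2 libraries, called 1 and 3) they were given the fibrin gel without cells. Hepatectomy and the gel were therefore shared by both groups. Strain, age, time after hepatectomy and source of the ADSC were not stated in the labels used, and nothing states that the 2 libraries of a group came from separate animals, so the p-values measure a spread between libraries that may be technical.

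The liver is the main site of catabolism for most essential amino acids, and hepatocytes carry nearly all of these enzymes. Each route strips the amino group, by transamination, deamination or oxidation, and passes the carbon skeleton to pyruvate, to intermediates of the citric acid cycle, or to acetyl-CoA and acetoacetate. Several first steps are regulated by glucocorticoids and glucagon, and several enzymes differ in level between hepatocytes near the portal vein and near the central vein.

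Levels are FPKM, that is, fragments per kilobase of transcript and per unit of library depth, so that they can be compared between genes. A log2 change is the difference between the means of log2(FPKM + 1), gelADSC minus control, with its standard error (SE). A gene was called where limma's two-sided test gave a Benjamini-Hochberg adjusted p under 0.05 over the 11070 genes whose mean reached 1 FPKM. Each library rested on roughly 18100000 to 24400000 reads, as read from the smallest steps of low values, and its values summed to between 495761 and 517719 FPKM. All 44 genes passed the filter on low values, and the gene with the lowest mean level still lay at percentile 62.0 of the tested genes (median percentile 93.8).

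Promoter sequences are shown for Prodh2, Hgd and Hal, members called higher whose windows hold a match to the C/EBP motif TTGCNNAA. That motif was found in 3 of 19 promoters of members called higher (15.8%). Among all 38 member promoters it was found in 4 (10.5%), close to the 10.8% of all promoters. Cebpa, which encodes C/EBP alpha, was called higher in gelADSC livers, and a link to these genes was not tested. The 3 genes were picked with these results known. They are the 250 bases before the annotated start, from RefSeq on GRCm38.p6, 5′ to 3′ on the plus strand, on which all 3 genes lie. Capitals mark motif matches on either strand. Each window holds the C/EBP motif, that of Prodh2 also holds the HNF1 motif GTTAAT, and those of Hgd and Hal hold the TATA box, spelled TATAAA. A match on the other strand appears as its reverse complement.
Prodh2, chr7:30493408-30493657: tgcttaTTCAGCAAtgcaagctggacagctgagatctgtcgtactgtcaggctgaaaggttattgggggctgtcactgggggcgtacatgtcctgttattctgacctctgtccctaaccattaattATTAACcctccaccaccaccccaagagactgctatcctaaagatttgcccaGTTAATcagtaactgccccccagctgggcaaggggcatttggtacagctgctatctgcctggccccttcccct
Hgd, chr16:37579903-37580152: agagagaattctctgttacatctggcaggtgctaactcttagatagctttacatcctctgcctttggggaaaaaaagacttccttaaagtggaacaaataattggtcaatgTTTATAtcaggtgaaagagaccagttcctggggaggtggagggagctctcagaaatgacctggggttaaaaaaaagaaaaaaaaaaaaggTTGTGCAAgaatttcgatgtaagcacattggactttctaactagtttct
Hal, chr10:93488518-93488767: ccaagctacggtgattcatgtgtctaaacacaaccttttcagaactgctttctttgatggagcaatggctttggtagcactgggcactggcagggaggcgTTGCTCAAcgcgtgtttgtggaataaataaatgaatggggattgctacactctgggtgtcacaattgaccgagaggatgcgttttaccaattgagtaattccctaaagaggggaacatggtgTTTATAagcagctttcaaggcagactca

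Of the 44 enzymes, 20 were called higher in gelADSC livers, 3 were called lower, and 21 were not called. Among all tested genes 24.4% were called in either direction, 6.92% higher and 17.5% lower. In 30 of the 44 both gelADSC libraries lay above both control libraries, in 6 they lay below, and in 8 the groups overlapped, while over all tested genes 19.2% lay above and 50.5% below without overlap. The median log2 change of the members was 0.77, with a range of -1.64 to 3.61, and over all tested genes the median was -0.25. Median ratio scaling between libraries brings the median of all genes to 0.00 and that of the members to 1.06, and it moves the share of calls that are higher to 50.1% over all genes (48.2% with quantile normalization), against 28.3% on the values as deposited. Without control library 1, 10 members were called higher and 3 lower, and the members' median was 0.47, with the lone control library taken to vary like the gelADSC pair. In such bulk samples a difference in the number of cells of a type and a difference in RNA per cell cannot be told apart. Each fit that leaves out a library has a lone library in that group and takes its spread from the other group. The p-value of such a fit does not measure the spread of the lone library's group, also where it ends a range given below.

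**Figure D1:**
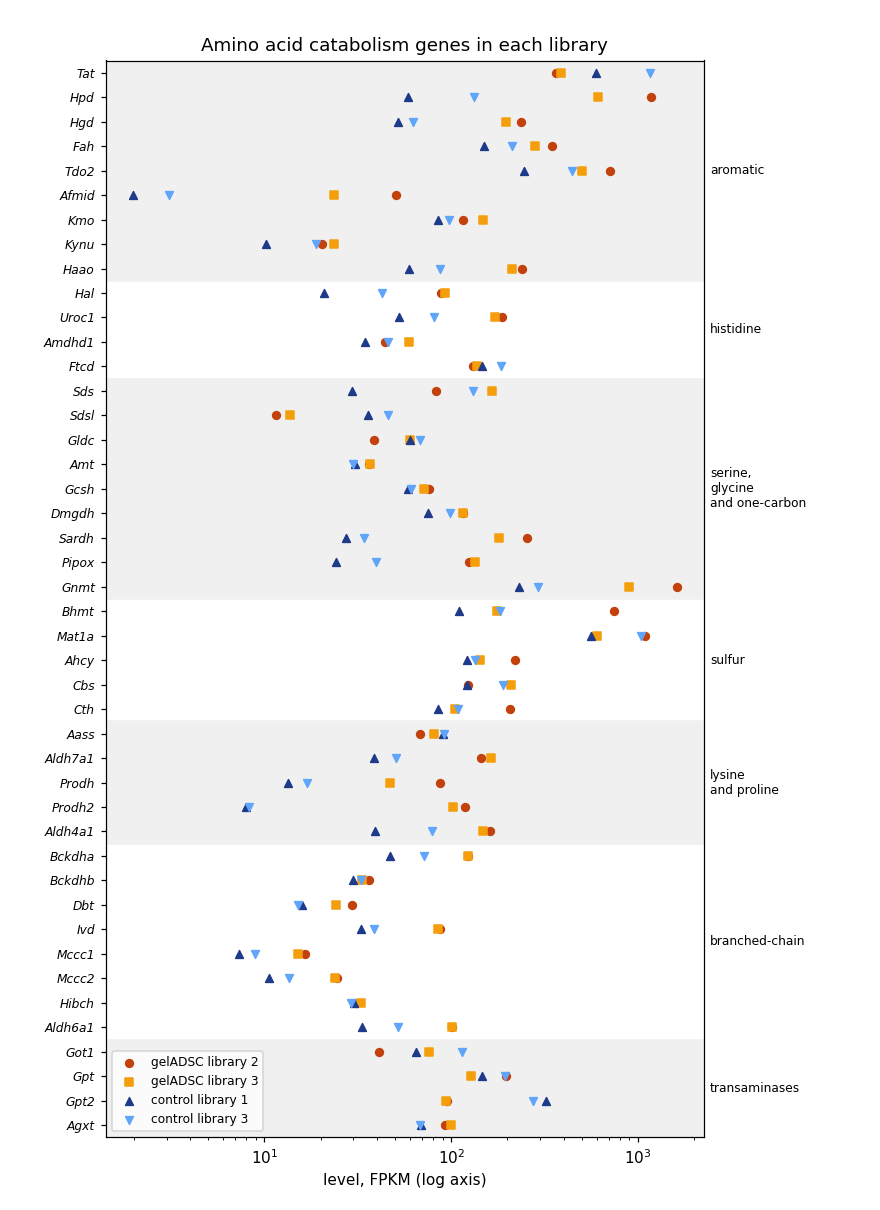
FPKM (log axis) of each of the 44 genes (rows, by group) in each library, with gelADSC library 2 as circles, gelADSC library 3 as squares, and control libraries 1 and 3 as upward and downward triangles. Prodh2 and Afmid show the widest gaps between groups, while Mat1a, Cbs, Cth and Gpt show overlapping groups.

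Summed over the 44 genes, the levels came to 9894 FPKM in gelADSC library 2 and 7137 FPKM in gelADSC library 3, against 4084 FPKM in control library 1 and 6186 FPKM in control library 3. These sums were 1.911% and 1.44% of all FPKM in gelADSC libraries 2 and 3, and 0.7951% and 1.206% in control libraries 1 and 3. The order of levels also differed between groups. Gnmt ranked first by mean level in gelADSC livers (1253 FPKM) and rank 5 in control livers (262 FPKM), whereas Tat ranked 6 in gelADSC livers (376 FPKM) and first in control livers (880 FPKM). Prodh2 held rank 24 in gelADSC livers and rank 42 in control livers, and Gpt2 held rank 27 in gelADSC livers and rank 4 in control livers.

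**Figure D2:**
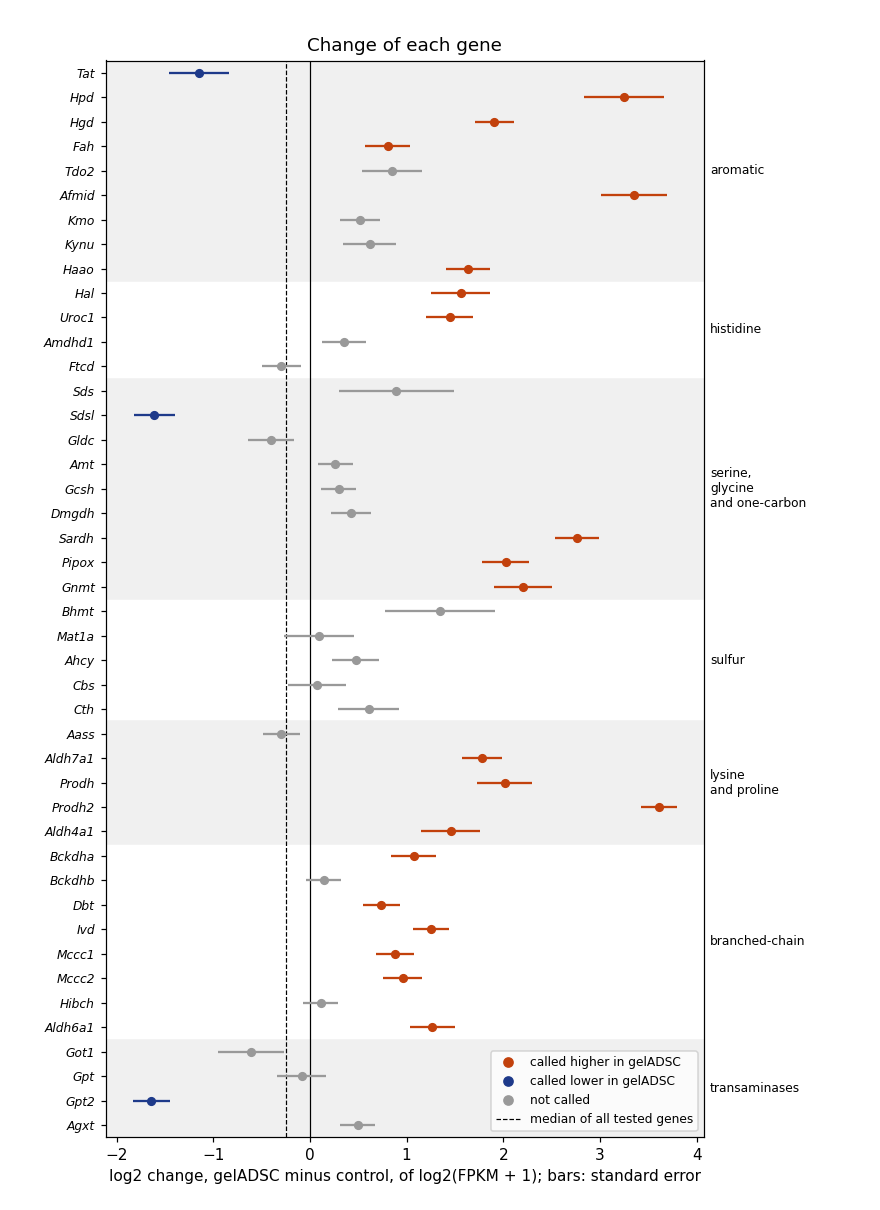
Log2 change (x axis, gelADSC minus control, of log2(FPKM + 1)) of each gene, with bars of 1 standard error and colour by call; the dashed line is the median of all tested genes. The 20 genes called higher reach from Dbt at 0.74 to Prodh2 at 3.61, and Gpt2, Sdsl and Tat are the 3 called lower.

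Transcripts of tyrosine breakdown changed in opposite directions at its entry and further along. Tat, the aminotransferase that starts the route, had 364 and 388 FPKM in gelADSC libraries 2 and 3, against 598 and 1162 FPKM in control libraries 1 and 3. Both gelADSC values lay below both control values, and the log2 change was -1.15 (SE 0.31, adjusted p = 0.0295). Hpd, the dioxygenase that makes homogentisate from the product of Tat, had 1176 and 613 FPKM in gelADSC livers, against 58.6 and 133 FPKM in control livers. Its lower gelADSC value exceeded the higher control value several times over, with a log2 change of 3.25 (SE 0.41, adjusted p = 0.00136). Hgd, which opens the ring of homogentisate, had 238 and 197 FPKM in gelADSC livers, against 51.8 and 62.4 FPKM in control livers (log2 change 1.91, SE 0.20, adjusted p = 6.22e-04). Fah, which releases fumarate and acetoacetate in the last step, had 345 and 283 FPKM in gelADSC livers, against 150 and 212 FPKM in control livers (log2 change 0.81, SE 0.23, adjusted p = 0.038). The groups stood apart in all 4 genes, with Tat alone lower in gelADSC livers. Of all tested genes 19.2% stood apart with gelADSC higher and 50.5% with gelADSC lower. The call of Tat was lost with no filter on low values (adjusted p = 0.121), with the median ratio (0.213) or quantile (0.0601) scaling and without control library 3 (0.089), in a range over the 10 alternatives of 0.00172 to 0.213. That of Fah was lost with no filter (0.105), with both scalings (0.0768 and 0.074), and without gelADSC library 2 (0.129) or control library 1 (0.229), in a range of 0.0147 to 0.229.

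In tryptophan breakdown by the kynurenine route, 2 of 5 enzymes were called higher, and all 5 had both gelADSC values above both control values. The shares of all tested genes were 6.92% and 19.2%. Afmid, the formamidase that frees kynurenine, had 50.5 and 23.5 FPKM in gelADSC livers, against 1.98 and 3.08 FPKM in control livers. Its log2 change was 3.35 (SE 0.34, adjusted p = 5.34e-04), and it held rank 36 by level among the members in gelADSC livers, against rank 44 in control livers. Haao, the dioxygenase that leads toward quinolinate and NAD, had 240 and 212 FPKM in gelADSC livers, against 59.4 and 87.6 FPKM in control livers (log2 change 1.63, SE 0.23, adjusted p = 0.0022). Tdo2, which opens the indole ring and commits tryptophan to the route, had 708 and 501 FPKM in gelADSC livers, against 244 and 445 FPKM in control livers, and was not called (log2 change 0.85, SE 0.31, adjusted p = 0.0781). Kmo, which hydroxylates kynurenine, had 116 and 148 FPKM in gelADSC livers, against 85.1 and 97.3 FPKM in control livers (adjusted p = 0.0967). Kynu, which cleaves the hydroxylated product, had 20.4 and 23.6 FPKM in gelADSC livers, against 10.2 and 18.9 FPKM in control livers (adjusted p = 0.131). On the log2 scale, the gelADSC libraries lay closer to each other in Tdo2 and Kynu than the control libraries did. The log2 change of Tdo2 was 1.10 without gelADSC library 3 and 1.28 without control library 3, and that of Kynu was 1.03 without control library 3. Both genes passed under these alternatives only, each of which leaves a lone library in a group. In the GENCODE M21 annotation 83 exon bases of Afmid, 2.3% of its exons, lie under Tk1 on the other strand, and Tk1 had 20.4 and 27.3 FPKM in gelADSC livers, against 1.06 and 1.82 FPKM in control livers. A further 44.2% of the exon bases of Afmid are shared with Gm20708 on the same strand. Whether reads were counted by strand is not stated, and the part of these overlaps in the change of Afmid was not tested.

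**Figure D3:**
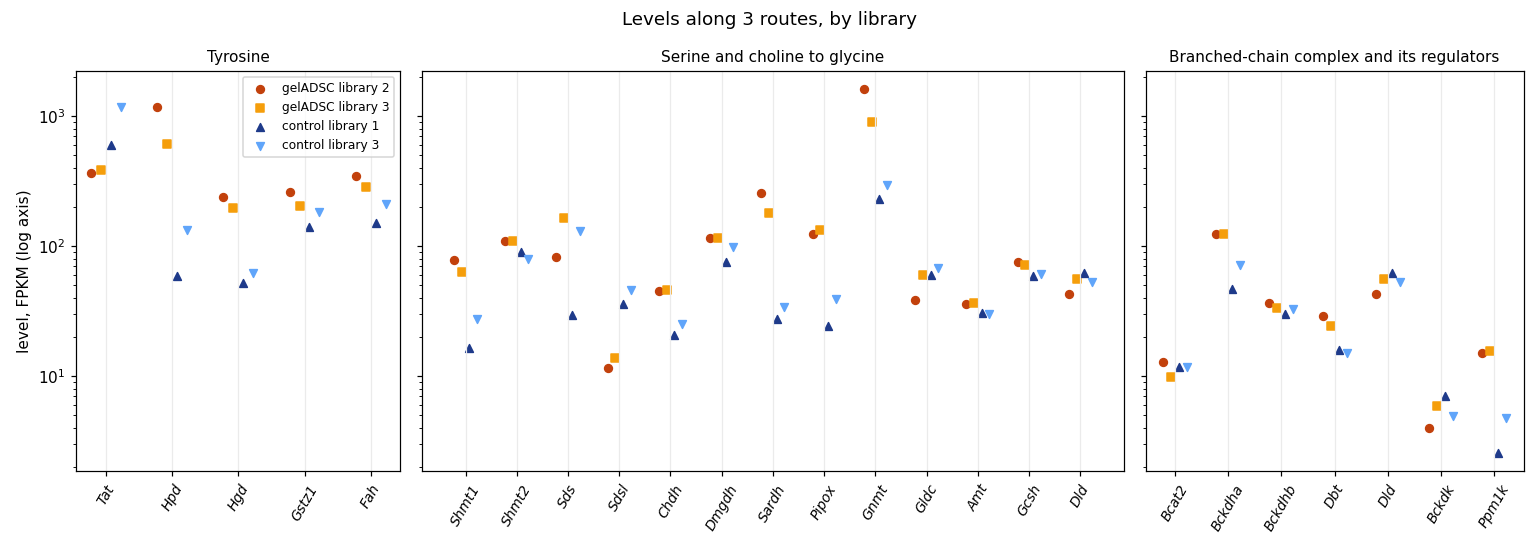
FPKM (log axis) in each library for genes along 3 routes: tyrosine (left), serine and choline to glycine (middle), and the branched-chain complex with its kinase and phosphatase (right). Tat stands apart from Hpd, Hgd and Fah by its lower gelADSC values, Sdsl does so beside Sardh, Pipox and Gnmt, and the phosphatase gene Ppm1k separates the groups while the kinase gene Bckdk does not.

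Of the enzymes of histidine breakdown, those of the first pair of steps were called higher and those of the next pair were not called. Hal, the ammonia-lyase that removes the amino group of histidine, had 88.0 and 92.9 FPKM in gelADSC livers, against 20.9 and 42.9 FPKM in control livers (log2 change 1.56, SE 0.30, adjusted p = 0.00874). Uroc1, which hydrates the urocanate made by Hal, had 188 and 171 FPKM in gelADSC livers, against 52.3 and 81.3 FPKM in control livers (log2 change 1.44, SE 0.24, adjusted p = 0.00437). In both genes the gelADSC libraries were close to each other and above both control libraries. Amdhd1, the imidazolonepropionase, had 44.2 and 59.4 FPKM in gelADSC livers, against 34.4 and 46.0 FPKM in control livers, and the groups overlapped (log2 change 0.36, adjusted p = 0.275). Ftcd, which hands the formimino group to folate, had 131 and 137 FPKM in gelADSC livers, against 147 and 184 FPKM in control livers (log2 change -0.29, adjusted p = 0.302). Hal and Amdhd1 are neighbours in the RefSeq gene order, and their changes were 1.56 and 0.36 on the log2 scale. The call of Hal was lost with no filter (adjusted p = 0.0648), with median ratio scaling (0.0502) and without control library 1 (0.0501), in a range of 9.77e-06 to 0.0648.

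Among the 9 enzymes of serine, glycine and one-carbon units, 3 were called higher and 1 lower, against 6.92% and 17.5% of all tested genes. The 3 higher ones handle sarcosine, the N-methyl derivative of glycine. Gnmt, which makes sarcosine by moving a methyl group from S-adenosylmethionine to glycine, had 1612 and 895 FPKM in gelADSC livers, against 232 and 293 FPKM in control livers (log2 change 2.2, SE 0.30, adjusted p = 0.00182). Sardh, the mitochondrial enzyme that turns sarcosine back into glycine, had 254 and 180 FPKM in gelADSC livers, against 27.4 and 34.3 FPKM in control livers (log2 change 2.77, SE 0.23, adjusted p = 1.94e-04). Pipox, a peroxisomal oxidase of sarcosine and pipecolate, had 125 and 134 FPKM in gelADSC livers, against 24.3 and 39.6 FPKM in control livers (log2 change 2.02, SE 0.25, adjusted p = 0.00115). In Sardh and Pipox the lower gelADSC library was above the higher control library by a margin wider than either group's own spread in FPKM, while in Gnmt the gelADSC libraries lay further apart than that margin. Dmgdh, which makes sarcosine from dimethylglycine in the mitochondrion, had 115.6 and 116 FPKM in gelADSC livers, against 74.9 and 98.7 FPKM in control livers, and was not called (log2 change 0.43, adjusted p = 0.155). The call of Gnmt was lost without control library 1 (log2 change 2.03, adjusted p = 0.0641), in a range of 5.86e-15 to 0.0641.

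Of the paired serine dehydratase genes, Sdsl was called lower and Sds was not called. Sdsl, the serine dehydratase-like gene, had 11.6 and 13.8 FPKM in gelADSC livers, against 35.9 and 45.9 FPKM in control livers, and was called lower (log2 change -1.61, SE 0.21, adjusted p = 0.00145). Sds, which converts serine to pyruvate, had 83.2 and 165 FPKM in gelADSC livers, against 29.5 and 132 FPKM in control livers. The groups overlapped in Sds, its control libraries differed by 2.12 on the log2(FPKM + 1) scale, the widest gap within the control group among the 44 genes, and it was not called (log2 change 0.89, SE 0.60, adjusted p = 0.295). The ratio of Sds to Sdsl was 7.20 and 11.95 in gelADSC livers, against 0.823 and 2.87 in control livers, without overlap. With 2 libraries a group an exact permutation test cannot go below a two-sided p of 0.333, so such ratios are given without a test. The log2 change of Sds was 1.38 without gelADSC library 2, 1.95 without control library 3 and -0.17 without control library 1. Sds passed only without gelADSC library 2 or control library 3, each time with a lone library left in a group. In the annotation 21.3% of the exon bases of Sds lie under Plbd2 on the other strand, which had 25.1 and 26.2 FPKM in gelADSC livers, against 29.6 and 30.1 FPKM in control livers.

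By limma, 0 of the 3 members of the glycine cleavage system, the mitochondrial complex that splits glycine into carbon dioxide, ammonia and a folate-bound carbon, were called, and 0 had an unadjusted p under 0.05. Gldc, its decarboxylase, had 38.4 and 59.9 FPKM in gelADSC livers, against 60.1 and 67.8 FPKM in control livers (log2 change -0.40, adjusted p = 0.239). Amt, its aminomethyltransferase, had 36.2 and 36.9 FPKM in gelADSC livers, against 30.6 and 30.0 FPKM in control livers (log2 change 0.26, adjusted p = 0.304). Gcsh, its lipoate carrier, had 76.1 and 71.3 FPKM in gelADSC livers, against 58.7 and 60.8 FPKM in control livers (log2 change 0.30, adjusted p = 0.251). The groups stood apart in each, narrowly in Gldc, with Gldc lower in gelADSC livers and Amt and Gcsh higher. Of all tested genes 50.5% stood apart with gelADSC lower and 19.2% with gelADSC higher. Dld, the shared dehydrogenase subunit, which is not among the 44, had 43.0 and 55.6 FPKM in gelADSC livers, against 62.2 and 53.3 FPKM in control livers, and was not called. The ratio of Gldc to Amt was 1.06 and 1.63 in gelADSC livers, against 1.97 and 2.26 in control livers. Amt passed with quantile normalization (adjusted p = 0.0444), in a range of 0.0444 to 0.641.

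By limma, 0 of the 5 enzymes of methionine and homocysteine metabolism were called, 1 had an unadjusted p under 0.05, and the groups overlapped in 4. Mat1a, the liver synthetase of S-adenosylmethionine, had 1086 and 605 FPKM in gelADSC livers, against 558 and 1037 FPKM in control livers (log2 change 0.09, adjusted p = 0.874). Bhmt, which remethylates homocysteine with betaine, had 742 and 175 FPKM in gelADSC livers, against 110 and 183 FPKM in control livers (log2 change 1.34, SE 0.57, adjusted p = 0.116). The high value of Bhmt came from gelADSC library 2, and gelADSC library 3 lay between the control libraries. Cbs, which joins homocysteine to serine, had 122 and 208 FPKM in gelADSC livers, against 122 and 189 FPKM in control livers (log2 change 0.07, adjusted p = 0.883). Cth, which splits cystathionine to release cysteine, had 207 and 104 FPKM in gelADSC livers, against 85.3 and 109 FPKM in control livers (log2 change 0.61, adjusted p = 0.182). Ahcy, which hydrolyses S-adenosylhomocysteine, was the exception to the overlap, with 221 and 143 FPKM in gelADSC livers, against 122 and 134 FPKM in control livers (log2 change 0.47, adjusted p = 0.178). Of these 5 genes, 4 were lower in gelADSC library 3 than in gelADSC library 2, and all 5 were higher in control library 3 than in control library 1. Without gelADSC library 3, the log2 change was 2.38 for Bhmt and 1.10 for Cth. Both passed the threshold under this alternative only, which leaves a lone gelADSC library with no spread of its own. Mat1a and Cbs changed sign when single libraries were left out. Bhmt2, the neighbouring paralog of Bhmt, had 114 and 75.1 FPKM in gelADSC livers, against 71.5 and 115 FPKM in control livers.

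Lysine and proline enzymes had the highest group median, 1.78 on the log2 scale, and 4 of 5 were called higher, against 6.92% of all tested genes. Prodh2, the hydroxyproline dehydrogenase, showed the largest change of the 44, with 119 and 103 FPKM in gelADSC livers, against 7.98 and 8.33 FPKM in control livers. Both groups were tight, and the log2 change was 3.61 (SE 0.19, adjusted p = 1.87e-05). Prodh, which starts proline breakdown, had 86.7 and 47.2 FPKM in gelADSC livers, against 13.4 and 17.0 FPKM in control livers (log2 change 2.01, SE 0.29, adjusted p = 0.00231). Aldh4a1, the dehydrogenase that follows both, had 161 and 148 FPKM in gelADSC livers, against 38.9 and 79.0 FPKM in control livers (log2 change 1.46, SE 0.31, adjusted p = 0.0119). All 3 of these members were called higher, with the ratio of Prodh2 to Prodh at 1.37 and 2.18 in gelADSC livers, against 0.594 and 0.491 in control livers. Of the later enzymes of hydroxyproline breakdown, which are not among the 44, Hoga1 had 98.0 and 86.5 FPKM in gelADSC livers, against 132 and 148 FPKM in control livers, and was not called (log2 change -0.60, adjusted p = 0.0513). Grhpr had 211 and 236 FPKM in gelADSC livers, against 248 and 271 FPKM in control livers, and was not called (log2 change -0.21, adjusted p = 0.44). Both stood apart with the gelADSC livers low, unlike the 3 members, although the sign of Grhpr turned with median ratio scaling (0.079), and both were named after their values were seen. Aass, which starts lysine breakdown by the saccharopine route, had 67.8 and 80.7 FPKM in gelADSC livers, against 90.7 and 91.3 FPKM in control livers, and was not called (log2 change -0.30, adjusted p = 0.275). Aldh7a1, the semialdehyde dehydrogenase after it, had 145 and 164 FPKM in gelADSC livers, against 38.5 and 50.9 FPKM in control livers (log2 change 1.78, SE 0.21, adjusted p = 9.82e-04). Aass, the entry step of lysine breakdown, had lower values in gelADSC livers while Aldh7a1 was called higher, but the difference in Aass did not pass the test. The change of Aass was close to the median of all tested genes, -0.25. Median ratio scaling reduced it to -0.006, and quantile normalization reduced it to -0.078. Tat stayed lower after these scalings, at -0.86 and -1.18, although its call was lost. A pattern shared by the entry steps of lysine and tyrosine breakdown was therefore not established. Prodh lost its call without control library 1 (log2 change 1.86, adjusted p = 0.0692), in a range of 3.2e-12 to 0.0692. Aldh4a1 lost it with no filter (0.0748), with both scalings (0.0584 and 0.0551) and without control library 1 (0.0681), in a range of 2.07e-05 to 0.0748, and 32.5% of its exon bases are shared with Gm21969 on the same strand.

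Every one of the 8 branched-chain enzymes had both gelADSC values above both control values, and 6 were called higher. The shares of all tested genes were 19.2% and 6.92%. The margin was narrow in Bckdhb (33.2 against 33.0 FPKM) and in Hibch (30.9 against 30.0 FPKM), the lower gelADSC value against the higher control value. Within the branched-chain ketoacid dehydrogenase, which commits leucine, isoleucine and valine to oxidation, Bckdha had 124 and 123 FPKM in gelADSC livers, against 47.2 and 71.8 FPKM in control livers (log2 change 1.07, SE 0.23, adjusted p = 0.0133). Its partner subunit Bckdhb had 36.4 and 33.2 FPKM in gelADSC livers, against 29.9 and 33.0 FPKM in control livers, and was not called (log2 change 0.14, adjusted p = 0.602). Dbt, the core subunit, had 29.3 and 24.2 FPKM in gelADSC livers, against 16.0 and 15.2 FPKM in control livers (log2 change 0.74, SE 0.19, adjusted p = 0.0278). The ratio of Bckdha to Bckdhb was 3.40 and 3.72 in gelADSC livers, against 1.58 and 2.17 in control livers. In the annotation 61.7% of the exon bases of Bckdha lie under B3gnt8 on the other strand, but B3gnt8 had only 0.373 and 0.425 FPKM in gelADSC livers, against 0.161 and 0.237 FPKM in control livers.

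Leucine-specific steps rose together. Ivd, the isovaleryl-CoA dehydrogenase, had 87.5 and 85.2 FPKM in gelADSC livers, against 32.9 and 38.8 FPKM in control livers (log2 change 1.25, SE 0.19, adjusted p = 0.00289). The subunits of methylcrotonyl-CoA carboxylase followed: Mccc1 had 16.5 and 15.1 FPKM in gelADSC livers, against 7.35 and 8.95 FPKM in control livers (log2 change 0.88, SE 0.20, adjusted p = 0.0159). Mccc2 had 24.4 and 23.9 FPKM in gelADSC livers, against 10.6 and 13.5 FPKM in control livers (log2 change 0.96, SE 0.20, adjusted p = 0.0115). The ratio of Mccc2 to Mccc1 was 1.48 and 1.59 in gelADSC livers, against 1.44 and 1.51 in control livers, so the ranges of the groups overlapped. On the valine side, Aldh6a1, the methylmalonate semialdehyde dehydrogenase, had 101 and 102 FPKM in gelADSC livers, against 33.2 and 51.9 FPKM in control livers (log2 change 1.27, SE 0.24, adjusted p = 0.00729), and 18.6% of its exon bases lie under Bbof1 on the other strand. Hibch, the hydrolase before it, had 30.9 and 33.1 FPKM in gelADSC livers, against 30.0 and 29.1 FPKM in control livers, and was not called (log2 change 0.11, adjusted p = 0.68).

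This group rested most on control library 1: without it 1 of the 8, Ivd, was called, against 6 with all libraries, 4 without gelADSC library 2 and 3 with no filter on low values. Without control library 1 the adjusted p was 0.0957 for Bckdha, 0.117 for Dbt, 0.103 for Mccc1, 0.0865 for Mccc2 and 0.0624 for Aldh6a1, with log2 changes of 0.77, 0.77, 0.76, 0.79 and 0.95. Without gelADSC library 2 it was 0.226 for Dbt and 0.09 for Mccc1, and without control library 3 it was 0.0784 for Dbt. With no filter it was 0.0611 for Bckdha, 0.0617 for Dbt and 0.0528 for Mccc1. Over the 10 alternatives it ranged from 0.00487 to 0.0957 for Bckdha, 0.0255 to 0.226 for Dbt, 0.0139 to 0.103 for Mccc1, 0.0104 to 0.0865 for Mccc2 and 6.73e-04 to 0.0624 for Aldh6a1.

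Of the 4 general transaminases, 1 was called, and it was lower. Gpt2, the mitochondrial alanine transaminase, had 95.1 and 93.9 FPKM in gelADSC livers, against 323 and 272 FPKM in control livers (log2 change -1.64, SE 0.19, adjusted p = 0.00101). Gpt, its cytosolic paralog, had 196.5 and 128 FPKM in gelADSC livers, against 147 and 194 FPKM in control livers, and the groups overlapped (log2 change -0.09, adjusted p = 0.831). The ratio of Gpt2 to Gpt was 0.484 and 0.731 in gelADSC livers, against 2.2 and 1.40 in control livers, so that the paralog with more transcript differed between the groups. Got1, the cytosolic aspartate transaminase, had 41.2 and 76.2 FPKM in gelADSC livers, against 64.5 and 114 FPKM in control livers (log2 change -0.61, adjusted p = 0.219). Got2, its mitochondrial paralog, had 204 and 216 FPKM in gelADSC livers, against 247 and 261 FPKM in control livers, and was not called (log2 change -0.27, adjusted p = 0.314). Agxt, which removes glyoxylate with alanine as donor, had 92.8 and 100.4 FPKM in gelADSC livers, against 68.7 and 68.0 FPKM in control livers (log2 change 0.49, SE 0.18, adjusted p = 0.0798). Got1 passed as lower only without gelADSC library 3 (log2 change -1.04), which leaves a lone gelADSC library. Agxt passed as higher with both scalings (adjusted p = 0.0336 and 0.0349), in a range of 0.0336 to 0.34.

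The spread within groups was uneven across the members. Control library 3 was above control library 1 in 39 of the 44 genes, with a median difference of 0.37 on the log2(FPKM + 1) scale, while over all tested genes it was above in 23.1%, with a median of -0.21. The 5 exceptions were Gpt2, Dbt, Hibch, Amt and Agxt. In the gelADSC group library 3 was above library 2 in 19 of the 44, with a median of -0.03, against 66.8% of all tested genes and a median of 0.10. A difference of more than 1 on that scale separated the libraries of a group in 4 genes of the control group and in 2 of the gelADSC group, Bhmt and Afmid. Of the 20 genes with a change of more than 1 in size between the groups, 19 were called, the exception being Bhmt. None of the 23 called genes had overlapping groups, and 13 of the 21 that were not called stood apart without passing the test. Standing apart was common: over all tested genes 19.2% did so with gelADSC higher and 50.5% with gelADSC lower.

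**Figure D4:**
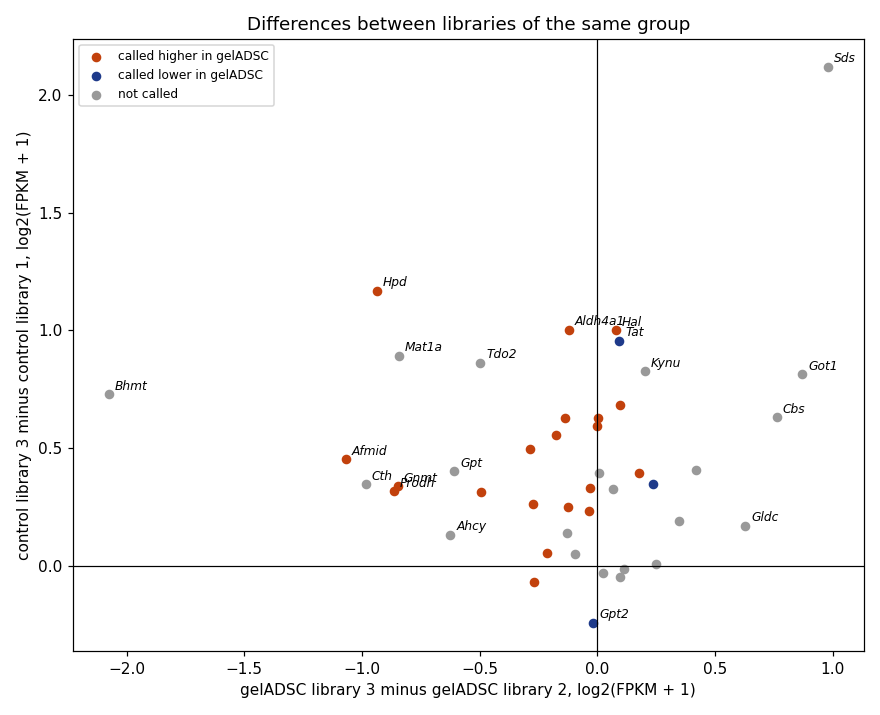
Difference between the libraries of a group in log2(FPKM + 1), gelADSC library 3 minus 2 on the x axis and control library 3 minus 1 on the y axis, for each of the 44 genes, coloured by call. Most points lie above 0 on the y axis (39 of 44), and Bhmt and Sds lie farthest out.

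The stability of the calls differed between members. Of the 23 called genes, 12 were called under each of the 10 alternatives: Hpd, Hgd, Afmid, Haao, Uroc1, Sdsl, Sardh, Pipox, Aldh7a1, Prodh2, Ivd and Gpt2. The other 11 lost the call under at least 1, of which 10 did so without control library 1 and Tat did not. Among the 21 genes that were not called, 8 passed under at least 1 alternative, and 13 passed under none of them.

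**Figure D5:**
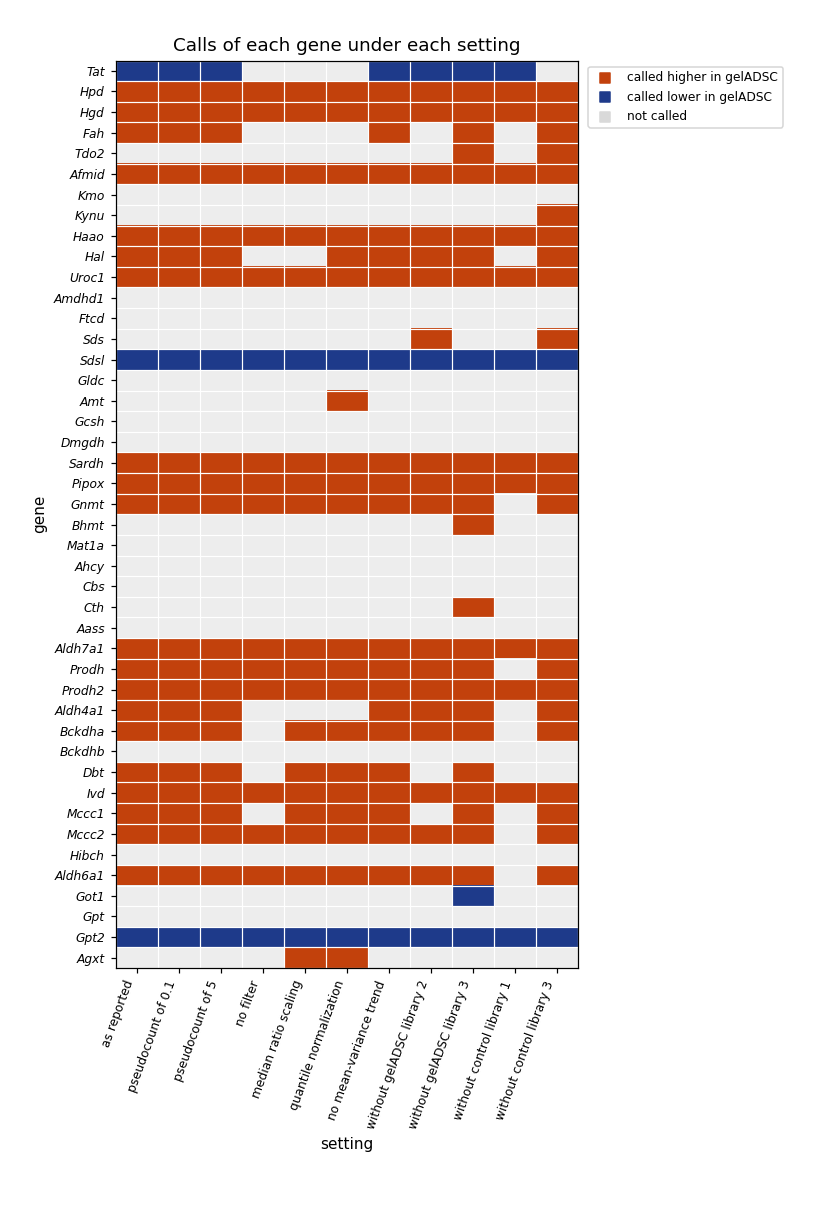
Call of each of the 44 genes (rows) under the analysis as reported and each of 10 alternatives (columns). Rows filled throughout mark the 12 genes called in every column, and the column without control library 1 holds the fewest filled cells, 13.

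Beyond the 44 enzymes, 85 further genes of the same routes were looked up, 80 of which passed the filter. Of these 80, 26 were called higher and 10 lower, with a median log2 change of 0.19. Among all tested genes 6.92% were called higher and 17.5% lower, with a median of -0.25. By route, 8 of 17 branched-chain and propionate genes were called, all higher. The counts were 5 higher and 1 lower of 11 for aromatic amino acids, 4 higher and 5 lower of 14 for serine, glycine and one-carbon units, and 3 higher and 2 lower of 18 for sulfur amino acids. Of 9 for lysine and proline 2 were called, both higher, of 10 for glutamate and its transaminases 4 were called higher and 1 lower, and the 1 for histidine, Hdc, was called lower. Without control library 1 the totals were 10 higher and 2 lower.

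Among the largest rises was Csad, the taurine-forming decarboxylase, which had 146 and 53.9 FPKM in gelADSC livers, against 8.53 and 13.8 FPKM in control livers (log2 change 2.92, adjusted p = 0.0024). Glul, glutamine synthetase, had 196 and 227 FPKM in gelADSC livers, against 39.7 and 32.7 FPKM in control livers (log2 change 2.52, adjusted p = 1.56e-04). Both genes had their lower gelADSC value above their higher control value. Abat, the GABA transaminase, changed by 2.28 and Dhtkd1, a dehydrogenase of lysine breakdown, by 1.86 on the log2 scale (adjusted p = 7.42e-04 and 0.00182). Ppm1k, the phosphatase that activates the branched-chain complex, had 14.99 and 15.6 FPKM in gelADSC livers, against 2.56 and 4.75 FPKM in control livers (log2 change 1.85, adjusted p = 0.00197). Bckdk, the kinase that inactivates it, had 4.02 and 5.87 FPKM in gelADSC livers, against 7.11 and 4.93 FPKM in control livers, and was not called. The ratio of Bckdk to Ppm1k was 0.268 and 0.376 in gelADSC livers, against 2.78 and 1.04 in control livers. Csad lost its call without control library 1 (adjusted p = 0.0823, in a range of 2.27e-26 to 0.0823).

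The 3 genes of serine synthesis from a glycolytic intermediate were called lower. Psat1, the aminotransferase of that pathway, had 1.10 and 2.05 FPKM in gelADSC livers, against 42.8 and 17.4 FPKM in control livers (log2 change -3.49, adjusted p = 7.4e-04). Phgdh, its first enzyme, had 0.0876 and 0.424 FPKM in gelADSC livers, against 6.49 and 1.80 FPKM in control livers (log2 change -1.88, adjusted p = 0.0154), and Psph, its phosphatase, changed by -1.30 (adjusted p = 0.0112). Asns, which makes asparagine, had 5.81 and 1.65 FPKM in gelADSC livers, against 34.3 and 17.6 FPKM in control livers (log2 change -2.59, adjusted p = 0.00502). In each of them the groups stood apart, with the gelADSC livers low, as they did in 50.5% of all tested genes. Acmsd, which draws the product of Haao away from NAD synthesis, had 8.13 and 10.9 FPKM in gelADSC livers, against 25.4 and 39.7 FPKM in control livers (log2 change -1.65, adjusted p = 0.0033). Mri1, of the methionine salvage pathway, changed by -1.16 (adjusted p = 0.0162). Without control library 1 the adjusted p was 0.112 for Asns, 0.124 for Psph and 0.15 for Mri1, and without gelADSC library 2 it was 0.0503 for Mri1. With no filter it was 0.0611 for Asns, 0.0894 for Phgdh, 0.0673 for Psph and 0.0789 for Mri1. Median ratio scaling gave 0.0531 for Asns and 0.0607 for Phgdh, and quantile normalization gave 0.0548 for Asns. The highest values over the alternatives were thus 0.112, 0.0894, 0.124 and 0.15 for Asns, Phgdh, Psph and Mri1, and the lowest were 6.11e-19, 1.15e-08, 8.07e-05 and 5.4e-04.

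Of 13 regulators known to act on these enzymes, 3 were called, all higher. Among all tested genes 24.4% were called in either direction, 6.92% of them higher and 17.5% lower, as shares of all tested. Cebpa had 72.7 and 78.0 FPKM in gelADSC livers, against 26.8 and 29.2 FPKM in control livers (log2 change 1.40, SE 0.18, adjusted p = 0.00153). Onecut1, a hepatocyte homeobox factor, had 8.88 and 27.3 FPKM in gelADSC livers, against 1.62 and 2.03 FPKM in control livers (log2 change 2.57, adjusted p = 0.00425). Nr3c1, the glucocorticoid receptor, had 10.8 and 10.5 FPKM in gelADSC livers, against 6.70 and 6.33 FPKM in control livers (log2 change 0.64, adjusted p = 0.0422). Cebpa kept its call under the 10 alternatives, whereas Onecut1 lost it without control library 1 (adjusted p = 0.103) or 3 (0.0517) and with no filter (0.0573), in a range of 1.74e-18 to 0.103. Nr3c1 lost it in 6 of the 10, with 0.0853 to 0.248 when each library was left out in turn, in a range over all of 0.0208 to 0.248.

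Promoter windows of 300 bases, 250 before and 50 after the start, were at hand in RefSeq for 36 of the 44 genes (38 promoters). The C/EBP motif TTGCNNAA was found on either strand in 3 of 19 promoters of members called higher (15.8%, those of Prodh2, Hgd and Hal printed above), in 1 of 17 of members not called (Aass), in 0 of 2 of members called lower, and in 10.8% of all 32851 promoters of the table. The first base of the match lies at position -244 in Prodh2, -150 in Hal and -49 in Hgd, relative to the start, and Hgd holds another at 14, after the start. The TATA box motif TATAAA was matched in 4 member promoters (10.5%, in Hal, Hgd, Ftcd and Tdo2) and in 13.6% of all promoters, at -28 in Hal and -139 in Hgd. The HNF1 motif GTTAAT was found in 4 member promoters (10.5%, in Prodh2, Haao, Ftcd and Bckdhb) and in 7.1% of all promoters. The HNF4 motif CAAAGTCCA was found in 1 (Pipox), against 0.5% of all promoters, and the forkhead motif TGTTTAC in 0, against 3.6%. Matches of different motifs did not overlap in the member promoters, and a match describes the sequence only.

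Cell type markers were read beside these results. The 8 hepatocyte markers, among them Alb and Ttr, summed to 56295 and 75501 FPKM in gelADSC livers, against 67227 and 81400 FPKM in control livers, with a median log2 change of 0.03. By limma 0 of the 8 were called, and 2 had an unadjusted p under 0.05. Of 10 markers of hepatocytes near the central vein 8 were called, all higher, and the list summed to 4737 and 3721 FPKM in gelADSC livers, against 573 and 806 FPKM in control livers. Of 8 portal markers 7 were tested and 5 called higher, and the list had sums of 1328 and 1739 FPKM in gelADSC livers, against 1218 and 2378 FPKM in control livers. The untested portal marker, Ass1, a urea cycle enzyme, was listed at no more than 0.151 FPKM in any library. Pck1, the most abundant portal marker, had 770 and 1057 FPKM in gelADSC livers, against 1099 and 2240 FPKM in control livers. Pck1 was not called by limma (adjusted p = 0.124) and passed only without gelADSC library 3, which leaves a lone gelADSC library. The portal sums overlapped between the groups. Most of the central sums came from Cyp2e1, with 3591 and 2542 FPKM in gelADSC livers, against 304 and 423 FPKM in control livers. Most of the portal sums came from Pck1. Gene by gene, the median log2 change was 2.196 for the central list and 1.434 for the tested portal markers. Markers called higher were thus not confined to the central list, and the part of either list in the result was not tested. Cholangiocyte markers summed to 58.2 and 49.8 FPKM in gelADSC livers, against 171 and 312 FPKM in control livers, with 2 of 5 tested, Sox9 and Spp1, called lower. Of 7 Kupffer cell markers 0 were called by limma and 3 had an unadjusted p under 0.05. Of 7 tested monocyte and neutrophil markers 1 was called, Retnlg, lower. Of 7 endothelial markers Stab2 and Kdr were called higher and Lyve1 lower, and of 7 stellate cell markers Lrat, Reln and Rgs5 were called higher. Markers of adipose stromal cells, the kind of cell given, summed to 66.4 and 41.3 FPKM in gelADSC livers, against 101 and 64.9 FPKM in control livers, with 1 of 6 tested, Nt5e, called lower. These sums overlapped between the groups and came mostly from Ly6a and Eng. In 4 of the 8 markers the groups overlapped, 3 stood apart with gelADSC lower, and Thy1, too low to be tested, stood apart with gelADSC higher. Whether any of these transcripts came from the given cells was not tested. The 8 lymphocyte markers were all too low to be tested and stood apart with the gelADSC livers higher, with sums of 1.84 and 2.84 FPKM in gelADSC livers, against 0.274 and 0.284 FPKM in control livers. Of 4 erythroid markers 1 was tested, Alas2, which had 40.1 and 38.9 FPKM in gelADSC livers, against 10.95 and 9.99 FPKM in control livers (log2 change 1.82, adjusted p = 5.31e-04), while Hba-a1 and Hbb-bt were listed at 0 in all libraries. Of 4 adipocyte markers 1 was tested, Fabp4, which had 38.6 and 12.5 FPKM in gelADSC livers, against 98.0 and 52.4 FPKM in control livers (log2 change -1.66, adjusted p = 0.0362). The call of Fabp4 was lost with no filter (adjusted p = 0.15), with both scalings (0.171 and 0.162) and without control library 1 (0.311) or 3 (0.0835), in a range of 1.62e-12 to 0.311. The part of these markers in the result was not tested.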

How the data were processed

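Polyadenylated RNA of 4 liver samples was sequenced from libraries of a stranded TruSeq kit after RNeasy extraction, per the labels' protocols. Trimmomatic 0.38, TopHat2 2.1.1 and Cufflinks 2.2.1 are named in the submitters' processing notes, with no settings. The build named there, hg19, is human and does not match the mouse symbols of the table. The deposited table holds 24421 symbols and names no unit, and its values were taken as FPKM made by the authors with Cufflinks, since they are not whole numbers and depend on gene length. Columns were mapped to groups by name, and 0 columns were left unmapped. Library numbers are those of the columns, 1 and 3 for control and 2 and 3 for gelADSC, whereas the sample titles number both groups 1 and 2, so a library is tied to its group but not to a titled sample.

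Genes whose mean reached 1 FPKM were tested on log2(FPKM + 1) by a two-sided limma test (version 3.58.1, R 4.3.3) that modelled a mean-variance trend, with Benjamini-Hochberg adjustment over the 11070 genes tested. The pseudocount of 1 understates the change of low genes. The script was tested on simulated data. Alternatives were pseudocounts of 0.1 and 5, no filter, median ratio scaling, quantile normalization, no trend, and leaving out each library. Every member is named, and of the other pathway genes the 6 largest called changes per direction and the partners or paralogs of members. Of these, 1 is not reported here. Regulators were named where called, after their values were seen. The members and the lists were chosen with earlier results of these data known. Exon overlaps come from GENCODE M21, neighbours and promoters from RefSeq GRCm38.p6. Of the 85 further genes, 4 were matched by a synonym. Depth is approximate, from the smallest steps under 0.05 FPKM in genes with 1 annotated transcript.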

Additional observations from a re-analysis of the deposited data

How the results depend on the processing

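With 2 libraries a group, the test leans on the spread shared across genes, and leaving a library out leaves 1 in its group, which is then taken to vary like the other group. No paired analysis was possible because the columns of the groups share 1 number only. Members called higher numbered 20, and 10 to 23 when each library was left out in turn, with 10 without control library 1. They numbered 14 to 20 under the other alternatives, with 14 when no filter was applied. Members called lower numbered 3, and 2 to 4 under the alternatives. Of the further pathway genes, 26 were called higher, against 16 with no filter and 10 to 23 when a library was left out. A total of 10 were called lower, against 3 with no filter, 5 with median ratio scaling, and 2 to 11 when a library was left out. Over all genes 766 were called higher, and 303 to 775 when a library was left out. The 1936 genes called lower became 730 with no filter, 948 with median ratio and 1000 with quantile scaling, and 331 to 1708 when a library was left out. No filter brings 17563 genes into the test, which changes the adjustment and the trend; for the other changes the cause was not tested.

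Among the named genes, signs turned in ones that were not called. With median ratio scaling the log2 change was 0.21 for Gpt, 0.056 for Dld, 0.0069 for Bckdk, 0.021 for Got2 and 0.079 for Grhpr, and with quantile normalization it was 0.017 for Gpt and 0.028 for Dld. When single libraries were left out, it ranged from -0.39 to 0.22 for Gpt, -0.17 to 1.95 for Sds, -0.35 to 0.54 for Mat1a, -0.31 to 0.45 for Cbs and -0.31 to 0.37 for Bhmt2.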

Other observations

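By the compartment in which each enzyme is known to act, 19 of the 44 genes encode mitochondrial enzymes, 22 cytosolic ones, and 3 peroxisomal ones or ones found in several compartments. This list was drawn up during the analysis and is a description. Of the mitochondrial 19, 10 were called higher (among them Sardh, Prodh2, Ivd and Aldh6a1) and 1 lower (Gpt2). Of the cytosolic 22, 8 were called higher (among them Gnmt, Hpd and Afmid) and 2 lower (Tat and Sdsl). The median log2 changes were close, 0.74 for mitochondrial and 0.71 for cytosolic enzymes. The groups overlapped in 0 of the 19 mitochondrial genes and in 8 of the 22 cytosolic ones, a difference that was not tested. They stood apart with gelADSC higher in 16 mitochondrial and 11 cytosolic genes, and with gelADSC lower in 3 of each. Over all tested genes 19.2% stood apart with gelADSC higher and 50.5% with gelADSC lower. In the control group, library 3 was above library 1 in 15 of the 19 mitochondrial genes, with a median difference of 0.19, and in all 22 cytosolic ones, with a median of 0.59 on the log2(FPKM + 1) scale.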
